A study of Homo sapiens with 6 samples.

Results

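The genes described here encode 9 subunits of GATOR1 (DEPDC5, NPRL2 and NPRL3), GATOR2 (MIOS, WDR24 and WDR59) and KICSTOR (KPTN, ITFG2 and C12orf66), chosen by symbol from the 50868 genes of the expression table. Each symbol had 1 row, and all 9 genes were abundant enough to be tested. RNA came from HEK-293T, a line derived from human embryonic kidney and transformed with viral genes, whose genotype is labelled WT (wild type). For 12 h before collection the culture medium contained either DMSO, which served as the vehicle, or nitidine chloride (NC in the labels), a plant alkaloid of the benzophenanthridine class, at 10 µM. Each condition had 3 libraries of mRNA, and the study's title names inhibition of mTORC1 signalling as its topic. The labels do not say whether the 3 libraries of a group came from separate cultures, so p-values measure the spread between these libraries, which may be technical.

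GATOR1 and GATOR2 form the branch through which amino acids control mTORC1, the kinase complex that promotes protein synthesis and growth on the lysosome. GATOR1 is a GTPase-activating protein complex for the Rag GTPases and thereby inhibits mTORC1. GATOR2 opposes GATOR1, and the leucine sensor Sestrin2 and the arginine sensor CASTOR1 bind GATOR2 when their amino acid is scarce. KICSTOR tethers GATOR1 to the lysosome. Loss of GATOR1 or KICSTOR subunits leaves mTORC1 active in cells deprived of amino acids, and variants of these genes are known from epilepsies and malformations of the cortex. SEH1L and SEC13 are also subunits of GATOR2 but serve the nuclear pore as well, SEC13 also the COPII vesicle coat. These 2 genes are described after the 9.

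The libraries held 12688093 to 16357992 counts, and single subunits had between 173 and 1471 counts in a library. Their coefficient of variation within a group of 3 libraries was between 1.95% and 15.9%. Genes of the mitochondrial genome took 3.80% to 3.94% of the counts in DMSO and 3.39% to 3.46% in nitidine chloride. Of 7 genes taken as markers of the HEK-293T lineage, 6 reached a mean of 1 CPM (counts scaled to the library total), while the neuronal filament gene INA was at 0 in 5 of 6 libraries. Among the lineage genes, CDH2 was at 48.7 to 53.1 CPM in DMSO and 12.8 to 13.4 CPM in nitidine chloride. NEFM was also lower in nitidine chloride, NEFL, PAX2 and KRT18 were higher, and VIM overlapped between the groups. The markers of 4 other cell types were mostly low. The 5 leukocyte genes summed to at most 4.07 CPM with CD3E at 0, and the 5 hepatocyte genes summed to at most 0.38 CPM with TTR and SERPINA1 at 0. The 5 fibroblast genes summed to 32.3 to 36.9 CPM in DMSO and 57.0 to 62.7 CPM in nitidine chloride, nearly all of it COL1A1, with COL1A2 at most 0.38 CPM. The 5 endothelial genes summed to 1.37 to 2.02 and 4.75 to 5.70 CPM, mostly KDR, with PECAM1 at most 0.12 CPM. Whether these marker and mitochondrial differences had a part in the changes of the subunits was not tested.

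Each complex had at least 1 subunit that rose after nitidine chloride, and GATOR1 and GATOR2 each also had 1 that fell. DEPDC5 and WDR59 fell. NPRL2, MIOS, KPTN, ITFG2 and C12orf66 rose. NPRL3 and WDR24 did not pass. A gene is said to have risen or fallen where its edgeR quasi-likelihood p-value, adjusted by the Benjamini-Hochberg method over the 15953 genes tested, was at most 0.05. Adjusted p-values below come from that test. Of the 9 subunits, 7 passed, against 51.7% of all tested genes. The 5 that rose compare with 24.7% of all tested genes called higher, and the 2 that fell with 27.0% called lower. The number that rose was 3 without DMSO replicate 2, 3 without nitidine chloride replicate 2 and between 4 and 6 without any other library, while 2 fell in each case. The values of the nitidine chloride libraries lay wholly above or wholly below those of the DMSO libraries for all 9 subunits, which was true of 60.7% of tested genes. The median log2 fold change of the 9 subunits was 0.34, and that of all tested genes was 0.01. In bulk RNA of this kind, a lower level in every cell and fewer cells that express a gene cannot be told apart. The levels are relative to the other genes of a library, so rises and falls here do not measure RNA per cell.

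**Figure D1:**
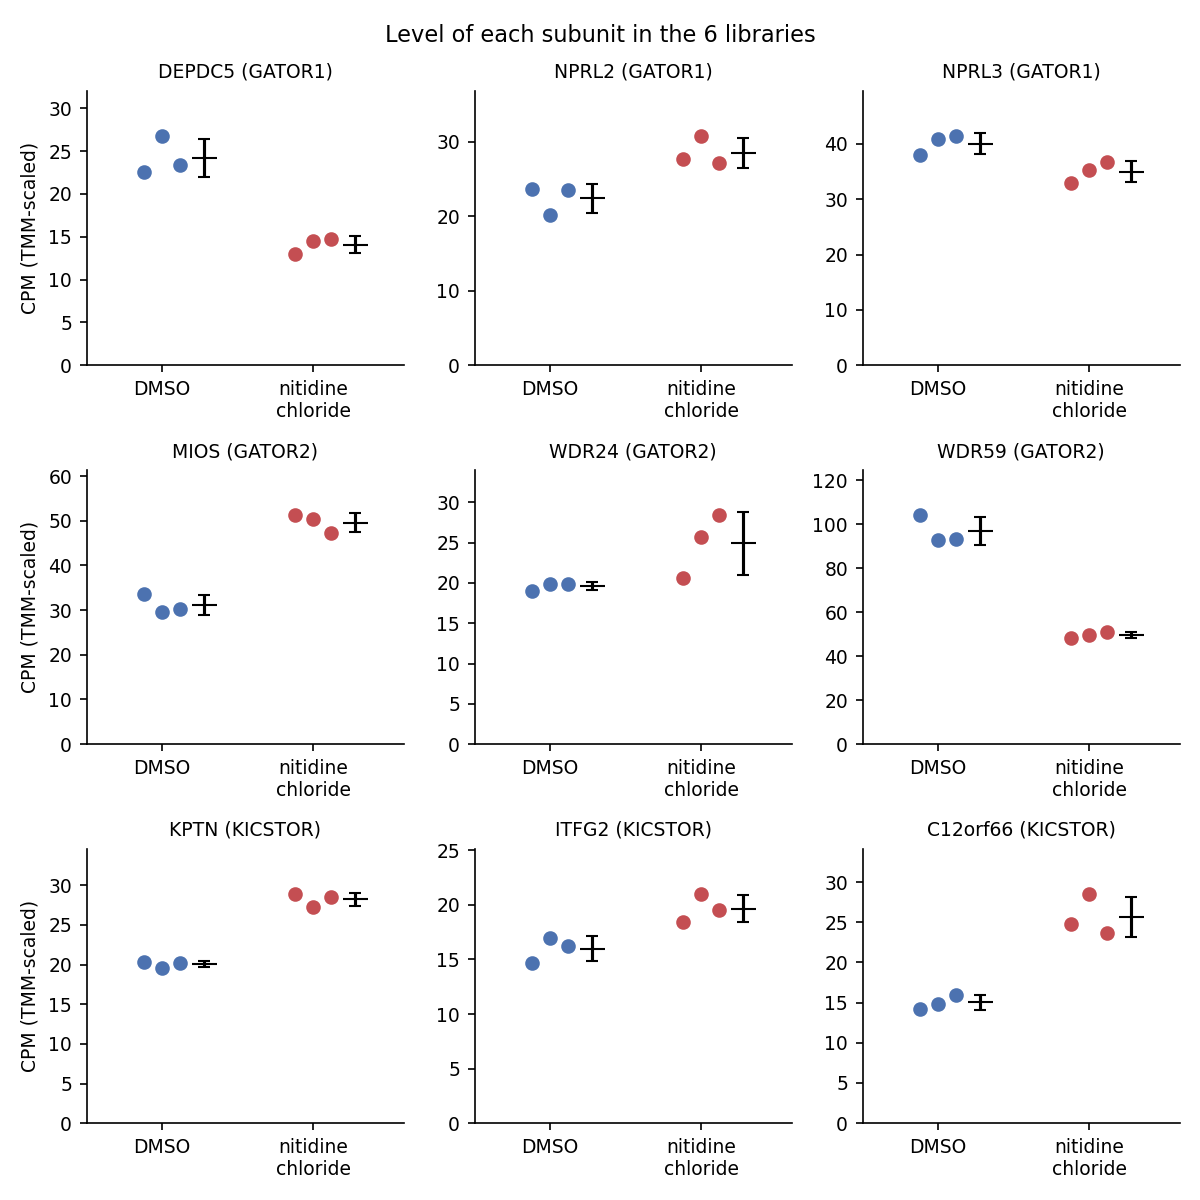
Level of each of the 9 subunits in CPM after TMM scaling (y axis, from 0) in the 3 DMSO libraries (blue) and the 3 nitidine chloride libraries (red), with a point per library and black bars for the mean ± SD. The groups do not overlap for any of the 9, with nitidine chloride below DMSO for DEPDC5, NPRL3 and WDR59 and above it for the other subunits.

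In GATOR1, the 3 subunits went different ways. DEPDC5 (ENSG00000100150), the largest subunit and the one through which GATOR1 binds the Rag GTPases, lies on chromosome 22 from 31753951 to 31907034 on the forward strand. Its level, as CPM after TMM scaling, was 22.6, 26.7 and 23.4 in the DMSO libraries and 13, 14.5 and 14.7 in the nitidine chloride libraries. All 3 treated libraries were thus well below the lowest DMSO library. The mean fell from 24.2 ± 2.20 to 14.1 ± 0.95 CPM (SD, n = 3), which gives a log2 fold change of -0.78 ± 0.11 (SE) with a 95% interval from -1.03 to -0.53. The adjusted p (edgeR, Benjamini-Hochberg) was 5.77e-04.

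NPRL2 (ENSG00000114388), the subunit that carries the catalytic arginine of the complex, is encoded by a compact gene on chromosome 3 from 50347330 to 50351091 on the reverse strand. It was at 23.7, 20.2 and 23.5 CPM in DMSO and at 27.7, 30.8 and 27.1 CPM in nitidine chloride. The groups were separate, with DMSO replicate 2 the lowest of the 6 and nitidine chloride replicate 2 the highest. The log2 fold change was 0.35 ± 0.10 (95% interval 0.11 to 0.58), and the adjusted p (edgeR, Benjamini-Hochberg) was 0.022. The same test no longer called NPRL2 without DMSO replicate 2 (adjusted p 0.0777) or without nitidine chloride replicate 2 (adjusted p 0.0561).

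NPRL3 (ENSG00000103148), the partner with which NPRL2 forms a heterodimer, lies on chromosome 16 from 84271 to 138860 on the reverse strand. It was at 38.0, 40.8 and 41.4 CPM in DMSO and at 32.9, 35.2 and 36.7 CPM in nitidine chloride. The 2 groups did not overlap, but the distance between them was small: the log2 fold change was -0.20 ± 0.08 (95% interval -0.38 to -0.01). The adjusted p (edgeR, Benjamini-Hochberg) was 0.0756, so NPRL3 did not pass. With scaling by library size alone its log2 fold change was -0.09.

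In GATOR2, the subunits showed the widest range of the 3 complexes. WDR59 (ENSG00000103091), a beta-propeller subunit with a RING domain, lies on chromosome 16 from 74871367 to 75000173 on the reverse strand. It was at 104.0, 92.7 and 93.4 CPM in DMSO and at 48.3, 49.8 and 51.2 CPM in nitidine chloride. Every treated library stood far below every DMSO library. The mean fell from 96.7 ± 6.38 to 49.8 ± 1.45 CPM and so decreased by 48.5%, with a log2 fold change of -0.96 ± 0.07 (95% interval -1.12 to -0.79). The adjusted p (edgeR, Benjamini-Hochberg) was 2.36e-05. WDR59 was the subunit with the lowest fold change of the 9, and the only one of them that passed a test against a change of 1.5-fold.

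MIOS (ENSG00000164654), also called MIO, is a propeller protein of the GATOR2 scaffold and lies on chromosome 7 from 7566872 to 7608929 on the forward strand. It was at 33.6, 29.5 and 30.1 CPM in DMSO and at 51.2, 50.3 and 47.2 CPM in nitidine chloride. The lowest treated library was above the highest DMSO library by more than the whole range of either group. The mean rose from 31.1 ± 2.21 to 49.6 ± 2.09 CPM, with a log2 fold change of 0.67 ± 0.08 (95% interval 0.48 to 0.87) and an adjusted p (edgeR, Benjamini-Hochberg) of 3.48e-04.

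WDR24 (ENSG00000127580), a subunit with a RING domain that GATOR2 needs to act on mTORC1, lies on chromosome 16 from 684622 to 690444 on the reverse strand. It was at 19.1, 19.8 and 19.9 CPM in DMSO and at 20.6, 25.7 and 28.4 CPM in nitidine chloride. Replicate 1 of nitidine chloride lay just above the DMSO libraries and the other two lay well above them. The log2 fold change was 0.34 ± 0.13 (95% interval 0.05 to 0.64), and WDR24 did not pass (adjusted p 0.0526, edgeR with Benjamini-Hochberg adjustment). Without nitidine chloride replicate 1 it passed that test with a log2 fold change of 0.46 and an adjusted p of 0.00796. With scaling by library size alone it passed as well (adjusted p 0.0182).

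All 3 KICSTOR subunits of the set rose. C12orf66 (ENSG00000174206), also named KICS2, had the highest fold change of the 9. It lies on chromosome 12 from 64186316 to 64222296 on the reverse strand. Its level was 14.2, 14.9 and 16.0 CPM in DMSO and 24.8, 28.5 and 23.7 CPM in nitidine chloride. The lowest treated library was well above the highest DMSO library. The mean rose from 15.02 ± 0.90 to 25.7 ± 2.5 CPM, with a log2 fold change of 0.77 ± 0.11 (95% interval 0.53 to 1.02) and an adjusted p (edgeR, Benjamini-Hochberg) of 6.00e-04.

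KPTN (ENSG00000118162), kaptin, was first described as an actin-binding protein and lies on chromosome 19 from 47475144 to 47484268 on the reverse strand. It was at 20.4, 19.6 and 20.2 CPM in DMSO and at 28.9, 27.2 and 28.5 CPM in nitidine chloride. Both groups were tight, and the gap between them was larger than the range within either. The log2 fold change was 0.49 ± 0.08 (95% interval 0.31 to 0.68), with an adjusted p (edgeR, Benjamini-Hochberg) of 0.00138.

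ITFG2 (ENSG00000111203), a propeller protein with which KPTN pairs, lies on chromosome 12 from 2812622 to 2859791 on the forward strand. It was at 14.7, 17.0 and 16.2 CPM in DMSO and at 18.5, 21.0 and 19.6 CPM in nitidine chloride. The highest DMSO and the lowest treated library were close, though they did not overlap. The log2 fold change was 0.30 ± 0.10 (95% interval 0.06 to 0.53), and the adjusted p (edgeR, Benjamini-Hochberg) was 0.0394. The call of ITFG2 depended on the libraries used: it was lost without DMSO replicate 1, 2 or 3 (adjusted p 0.126, 0.0549 and 0.0903) and without nitidine chloride replicate 2 or 3 (0.0882 and 0.0746), and held without nitidine chloride replicate 1 (0.0422). It was also lost with DESeq2 (adjusted p 0.0799) and with no filter on low counts (0.0722).

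**Figure D2:**
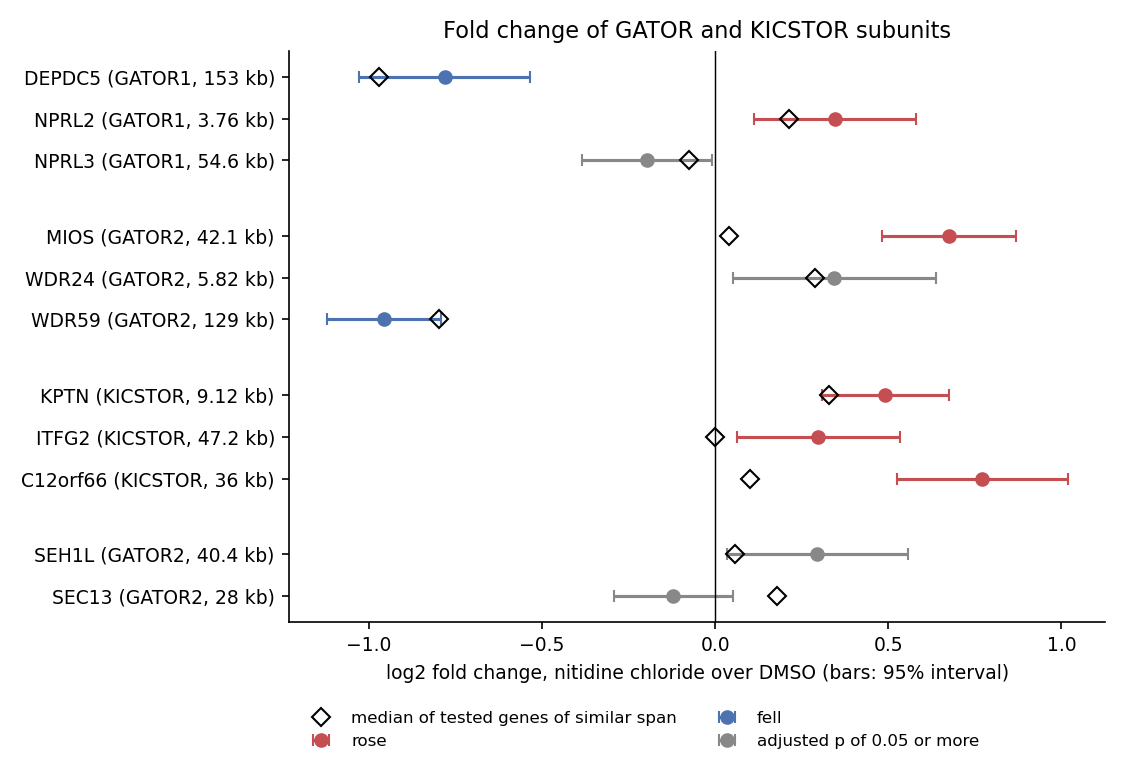
Log2 fold change of nitidine chloride over DMSO (x axis) with its 95% interval for the 9 subunits and for SEH1L and SEC13, coloured red where the gene rose, blue where it fell and grey where it did not pass, with open diamonds for the median of tested genes of like span. KPTN, ITFG2 and C12orf66 all lie to the right of 0, while GATOR1 and GATOR2 have members on either side.

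All 3 KICSTOR genes of the set were called higher, as were 24.7% of all tested genes. ITFG2 lost its call in 10 of the 16 alternatives run. Whether the changes of the 3 genes are linked was not tested. The sequences upstream of these 3 genes are shown. They were taken from RefSeq (GRCh38.p14) as the bases before the gene's start, ended where either RefSeq or the deposited table places the first base of the gene, and are written 5′ to 3′ on the gene's strand. KPTN is at chr19:47484269-47484469 (reverse strand), ITFG2 at chr12:2812418-2812621 (forward strand) and C12orf66 at chr12:64222297-64222546 (reverse strand). Capitals mark a match to a searched motif.
KPTN: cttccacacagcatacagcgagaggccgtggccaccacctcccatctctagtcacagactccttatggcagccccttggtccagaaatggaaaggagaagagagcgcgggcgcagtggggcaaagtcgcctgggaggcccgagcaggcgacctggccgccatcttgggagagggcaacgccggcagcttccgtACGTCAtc
ITFG2: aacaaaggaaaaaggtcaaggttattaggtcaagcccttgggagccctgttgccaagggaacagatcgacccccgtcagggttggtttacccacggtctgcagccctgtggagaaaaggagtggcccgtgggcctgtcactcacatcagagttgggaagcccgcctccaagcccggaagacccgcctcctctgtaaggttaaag
C12orf66: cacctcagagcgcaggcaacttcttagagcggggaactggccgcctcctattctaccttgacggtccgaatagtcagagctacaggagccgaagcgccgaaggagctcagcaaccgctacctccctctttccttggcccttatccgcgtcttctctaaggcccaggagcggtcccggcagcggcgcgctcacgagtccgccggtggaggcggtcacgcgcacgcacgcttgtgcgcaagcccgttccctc

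RefSeq windows from 250 bases before to 50 bases after the start were found for 8 of the 9 subunits, all but WDR24. They were searched on both strands for CACGTG, the E-box that the lysosomal factors TFEB and TFE3 and other factors bind, for TGACGT, the core of the cyclic AMP response element, and for TGATGNAA, the core that amino acid response elements bound by ATF4 share. No 2 of these motifs overlapped in a subunit's window. KPTN held TGACGT on the opposite strand, read ACGTCA above, with its first base 57 bases before the RefSeq start. ITFG2 held TGACGT 14 bases before the start, C12orf66 held CACGTG 30 bases after it, and so did NPRL3, in GATOR1, 25 bases after it. These 3 sites are shown with the bases around them, at chr12:2812642-2812671 (forward strand), chr12:64222249-64222278 (reverse strand) and chr16:138631-138660 (reverse strand), in that order.
ITFG2 site: aggttcaggcagTGACGTaacttgctgcct
C12orf66 site: gccgaggagagcCACGTGggtcgagctggg
NPRL3 site: cccggagcgtggCACGTGggttggtaactg

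Of the 35116 RefSeq windows, 7.26% held CACGTG, 7.98% held TGACGT and 3.62% held TGATGNAA. None of the letters searched were in the windows of DEPDC5, NPRL2, MIOS or WDR59, and TGATGNAA was in no subunit's window. The RefSeq start of WDR59 lies 15050 bases from the start in the table, so the window need not be the one used here. That of NPRL2 lies 316 bases inside the gene as deposited, so all bases searched for NPRL2 lie within that gene. For NPRL3 the distance is 187 bases, and 63 bases of its window lie before both starts. A match is a description of letters only. NPRL3, which did not pass, and C12orf66, which rose, both held the E-box.

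SEH1L and SEC13, the GATOR2 subunits shared with other complexes, did not pass. SEH1L was at 88.5, 66.1 and 81.8 CPM in DMSO and at 101.8, 89.5 and 98.8 CPM in nitidine chloride. Its groups were separated by a narrow gap, with a log2 fold change of 0.30 ± 0.11 and an adjusted p (edgeR, Benjamini-Hochberg) of 0.0589. SEH1L passed in 7 of the 16 alternatives run, among them without DMSO replicate 1 (adjusted p 0.0311), with DESeq2 (0.0467) and with scaling by library size alone (0.0197). Without DMSO replicate 2 its log2 fold change was 0.18 (adjusted p 0.137). SEC13 was at 78.1, 71.1 and 77.1 CPM in DMSO and at 65.5, 74.2 and 68.3 CPM in nitidine chloride, with overlapping groups and a log2 fold change of -0.12 ± 0.07 that did not pass. With both included, 5 of 11 subunits rose, 2 fell and 4 did not pass. Of all tested genes, 24.7% were called higher and 27.0% lower.

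The subunits that fell are encoded by the longest genes of the set. DEPDC5 spans 153 kb from first to last base, introns included, and WDR59 129 kb, while the other subunits span 3.76 kb (NPRL2) to 54.6 kb (NPRL3). Fold changes after nitidine chloride varied with span over all tested genes, and the part of span in the change of a subunit was not tested. Tested genes of like span (the ratio of the shorter to the longer of both spans was at least 0.8) had a median log2 fold change of -0.97 in the case of DEPDC5, below the -0.78 of DEPDC5 itself. The median of such genes for WDR59 was -0.80, above its own -0.96. Among genes that rose, C12orf66 (36.0 kb) had 0.77 where genes of like span had a median of 0.10, and MIOS (42.1 kb) had 0.67 beside a median of 0.04. ITFG2 (47.2 kb) had 0.30 where genes of like span had a median of -0.00, KPTN (9.12 kb) 0.49 beside 0.33 and NPRL2 (3.76 kb) 0.35 beside 0.21. NPRL3 and WDR24, which did not pass, had -0.20 and 0.34 where their classes had medians of -0.08 and 0.29. Of genes of like span, 78.2% fell in the class of DEPDC5 and 73.9% in that of WDR59. The share that rose was 46.5% for KPTN, 36.2% for NPRL2, 26.6% for C12orf66, 22.6% for MIOS and 19.1% for ITFG2. These classes are given as a description, with no test.

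**Figure D3:**
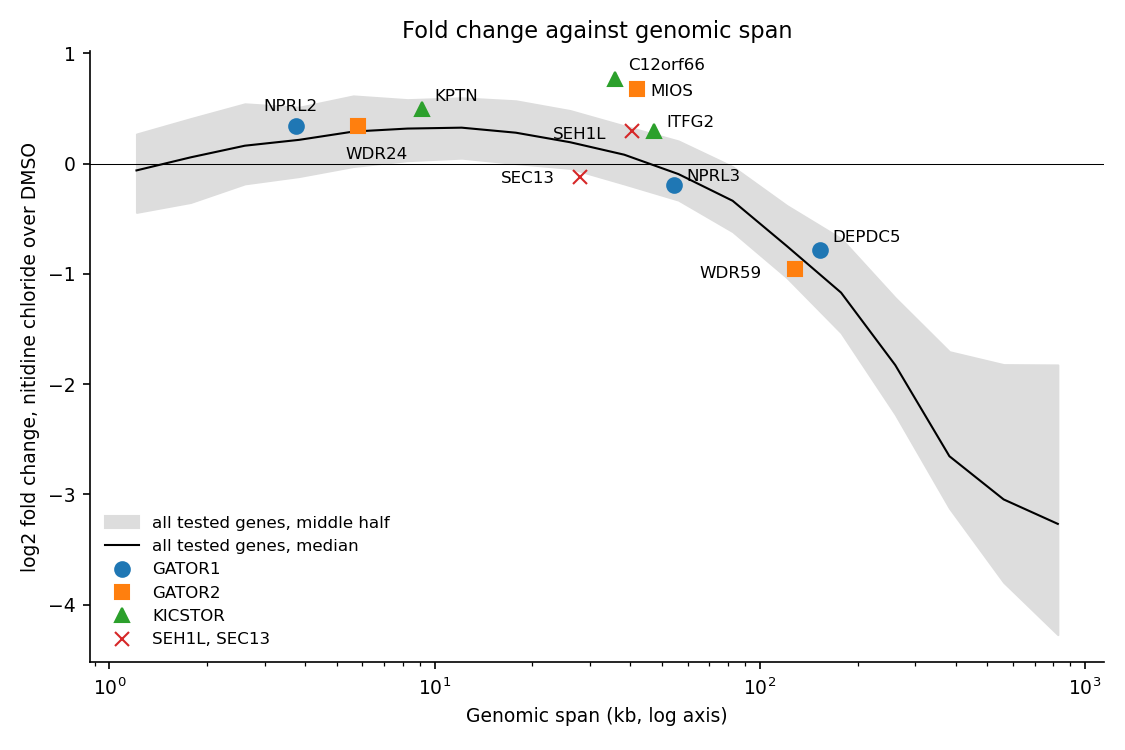
Log2 fold change of nitidine chloride over DMSO (y axis) against genomic span in kb (x axis, log scale) for the 9 subunits and for SEH1L and SEC13, with the median of all tested genes per span bin as a line and the interquartile range as a grey band. DEPDC5 and WDR59, the longest genes marked, lie near the line, and C12orf66, MIOS and, by less, ITFG2 lie above the band.

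The balance between subunits within a complex was compared as the ratio of their levels in each library, which does not depend on how libraries are scaled. Ratios per library are of levels per kb of the principal transcript. Whether such a ratio lies above or below 1 depends on the length used, while its change between the groups does not. In GATOR2, the ratio of MIOS to WDR59 was 0.552, 0.544 and 0.552 in DMSO and 1.81, 1.73 and 1.58 in nitidine chloride. MIOS RNA was thus below WDR59 RNA in every DMSO library and above it in every treated library. The difference in the log2 ratio was 1.63, a 3.10-fold change, and was the largest of the 9 pairs compared. The ratio of WDR24 to WDR59 was 0.333, 0.389 and 0.388 in DMSO and 0.776, 0.939 and 1.01 in nitidine chloride, a 2.44-fold change.

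In GATOR1, the ratio of DEPDC5 to NPRL2 was 0.251, 0.347 and 0.261 in DMSO and 0.123, 0.124 and 0.143 in nitidine chloride. The treated ratios were below all DMSO ratios, by 2.18-fold on average. NPRL2 to NPRL3, the pair that forms the heterodimer, was at 1.17, 0.932 and 1.07 in DMSO and at 1.58, 1.64 and 1.39 in nitidine chloride, also with no overlap. DEPDC5 to NPRL3 differed by -0.58 on the log2 scale. In KICSTOR, ITFG2 to C12orf66 was at 1.82, 2.01 and 1.79 in DMSO and at 1.31, 1.29 and 1.45 in nitidine chloride, and KPTN to C12orf66 differed by -0.28 on the log2 scale, and by -0.18 without nitidine chloride replicate 2. The ratio of KPTN to ITFG2 and that of MIOS to WDR24 overlapped between the groups, and the latter differed by 0.34 on the log2 scale, or 0.19 without nitidine chloride replicate 1. For the 7 pairs without overlap, the exact two-sided permutation test gave p = 0.1, the smallest that 3 against 3 libraries allow, and 0.129 after Benjamini-Hochberg adjustment over the 9 pairs. For the pairs with overlap it gave 0.2. The design could not reach 0.05, so these ratios are given by their separation and size. How often the ratio of other gene pairs separates the groups was not computed, so the number of separate pairs has no reference. Single genes were separate in 60.7% of tested genes and in all 9 subunits. The differences in log2 ratio restate the fold changes of the 2 subunits of a pair.

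**Figure D4:**
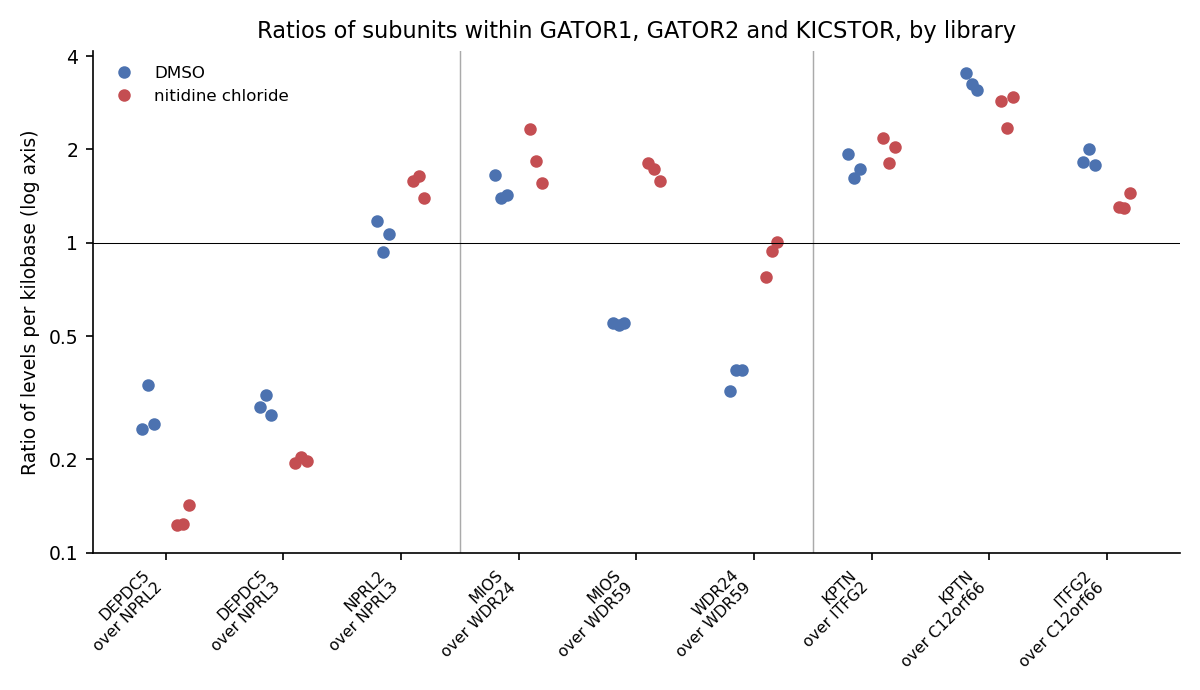
Ratio of the levels of 2 subunits of a complex, each per kb of principal transcript (y axis, log scale), for the 9 pairs in the DMSO (blue) and nitidine chloride (red) libraries, with a point per library. MIOS over WDR59 lies below the line of equal level in DMSO and above it in nitidine chloride, and KPTN over ITFG2 and MIOS over WDR24 overlap between the groups.

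Levels were compared between genes as CPM per kb of the principal transcript of GENCODE release 29. In DMSO, WDR59 was highest at 16.4 ± 1.08 (mean ± SD, n = 3), with all its libraries above those of the next gene. NPRL2 at 13.2 ± 1.15, NPRL3 at 12.5 ± 0.57 and KPTN at 11.9 ± 0.23 followed, and the libraries of NPRL3 overlapped with those of both of these neighbours. MIOS at 9.004 ± 0.64, ITFG2 at 6.77 ± 0.49 and WDR24 at 6.04 ± 0.15 came next, without overlap between neighbours. DEPDC5 at 3.74 ± 0.34 and C12orf66 at 3.62 ± 0.22 were lowest and overlapped. DEPDC5 thus had the lowest level of the GATOR1 subunits in DMSO.

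In nitidine chloride, NPRL2 at 16.8 ± 1.16 and KPTN at 16.7 ± 0.51 were highest and overlapped, ahead of MIOS at 14.4 ± 0.61 and NPRL3 at 10.9 ± 0.60. WDR59, first in DMSO, was the fifth at 8.44 ± 0.25 and overlapped with ITFG2 at 8.33 ± 0.54, which overlapped with WDR24 at 7.68 ± 1.22, and that with C12orf66 at 6.19 ± 0.60. DEPDC5 was lowest at 2.17 ± 0.15. The order depends on the transcript length used. With the merged length of all annotated exons, KPTN came second in DMSO and first in nitidine chloride. DEPDC5 was last in both groups, at 1.40 and 0.81 CPM per kb. On that length in nitidine chloride, WDR24 at 6.82 was above WDR59 at 5.28, and C12orf66 at 4.28 was above ITFG2 at 3.15. MIOS was still below WDR59 in DMSO (4.63 and 10.3) and above it in nitidine chloride (7.39 and 5.28). The deposited FPKM were not used to order genes, because the length behind them for NPRL2 was 15284 bp, more than the 3762 bp that the gene spans.

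Several subunit genes share bases with a counted gene on the opposite strand, and whether counting used strand is not given in the sources used here. Without strand, reads from the bases that both genes of such a pair share cannot be told apart. NPRL3 shares 453 bp of exon with MPG, a DNA glycosylase gene, which had 473 to 670 counts in DMSO and 604 to 866 in nitidine chloride and did not pass (log2 fold change 0.24 ± 0.11). ITFG2 shares 781 bp of exon with FOXM1, a cell-cycle transcription factor gene with 779 to 2064 counts in DMSO and 1868 to 2316 in nitidine chloride, which did not pass either (0.40 ± 0.29). WDR24 shares 1303 bp of exon with Z92544.1, which had 45 to 53 counts in DMSO, fewer than WDR24, and fell with a log2 fold change of -1.07 ± 0.26. NPRL2 shares 397 bp with CYB561D2, which did not pass (0.12 ± 0.15). WDR59 shares 73 bp of exon with ZNRF1, which had 194 to 213 counts in DMSO and 130 to 203 in nitidine chloride and fell, as WDR59 did (-0.44 ± 0.15). DEPDC5, KPTN and C12orf66 had no counted gene that overlapped them.

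Around these complexes, the genes of the amino acid branch also went both ways. The counts of these lists stand beside the 24.7% of all tested genes called higher, the 27.0% called lower and the 51.7% called in either direction. Of 8 nutrient sensor genes, 2 rose, 4 fell and 2 did not pass. SESN2, which encodes the leucine sensor Sestrin2, had a log2 fold change of 1.51 ± 0.06, and its relative SESN1, on a long gene, had 0.73 ± 0.07. BMT2, which encodes the S-adenosylmethionine sensor SAMTOR that binds GATOR1 and KICSTOR, fell with -1.18 ± 0.10, and SESN3 fell with -0.45 ± 0.11. Genes of like span had medians of 0.23 for SESN2, -0.61 for SESN1, -0.74 for BMT2 and -0.20 for SESN3. Here and below, the part of span in the change of a gene was not tested. The arginine sensor CASTOR1 was at 0.996 to 3.12 CPM in DMSO and 0.909 to 2.15 CPM in nitidine chloride and did not pass. The median log2 fold change of the 8 was -0.27.

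Of 9 genes of the Rag GTPases and Ragulator, the lysosomal anchor of the Rags, 2 rose and 1 fell. RRAGC rose with 0.59 ± 0.08 and RRAGA with 0.57 ± 0.08, RRAGD fell with -0.30 ± 0.09, and the 5 Ragulator genes LAMTOR1 to LAMTOR5 and RRAGB did not pass. In the folliculin complex, which acts on RagC and RagD, FLCN rose with 0.76 ± 0.09, while both of its partners fell, FNIP2 with -1.56 ± 0.08 and FNIP1 with -1.20 ± 0.14. Genes of like span had medians of 0.20 for FLCN, -0.86 for FNIP2 and -0.99 for FNIP1. Of the 4 ubiquitin ligase genes that act on GATOR1 or the Rags, CUL3 fell with -1.08 ± 0.05 and the others did not pass, among them KLHL22, the adaptor through which CUL3 targets DEPDC5, at -0.13 ± 0.09. The median of genes of like span was -0.68 for CUL3 and -0.08 for KLHL22.

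Of the TSC complex, which inhibits mTORC1 through the GTPase RHEB, TSC1 rose with 0.39 ± 0.06 and TSC2 with 0.34 ± 0.06, RHEB fell with -0.41 ± 0.15, though its groups overlapped, and TBC1D7 did not pass. All 5 mTORC1 subunit genes passed, where 51.7% of all tested genes did. MLST8 rose with 0.64 ± 0.07 and AKT1S1 with 0.26 ± 0.10, the latter with overlapping groups, and RPTOR, MTOR and DEPTOR fell. RPTOR, the subunit that the Rag GTPases recruit and a gene of 422 kb, had the lowest value of all genes of these lists, from 84.7 ± 2.08 to 9.75 ± 0.75 CPM. Its log2 fold change was -3.12 ± 0.09, and the median of genes of like span was -2.79. Of 10 nuclear pore and COPII genes whose products work with SEH1L and SEC13, 1 rose (SEC31B, 0.65 ± 0.22) and 7 fell, with the lowest values in NUP98 (-1.21 ± 0.06) and AHCTF1 (-0.70 ± 0.07), beside 24.7% of all tested genes called higher and 27.0% called lower. The median of these 10 was -0.33. Genes of like span had medians of -0.78 for NUP98, -0.44 for AHCTF1 and 0.13 for SEC31B.

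**Figure D5:**
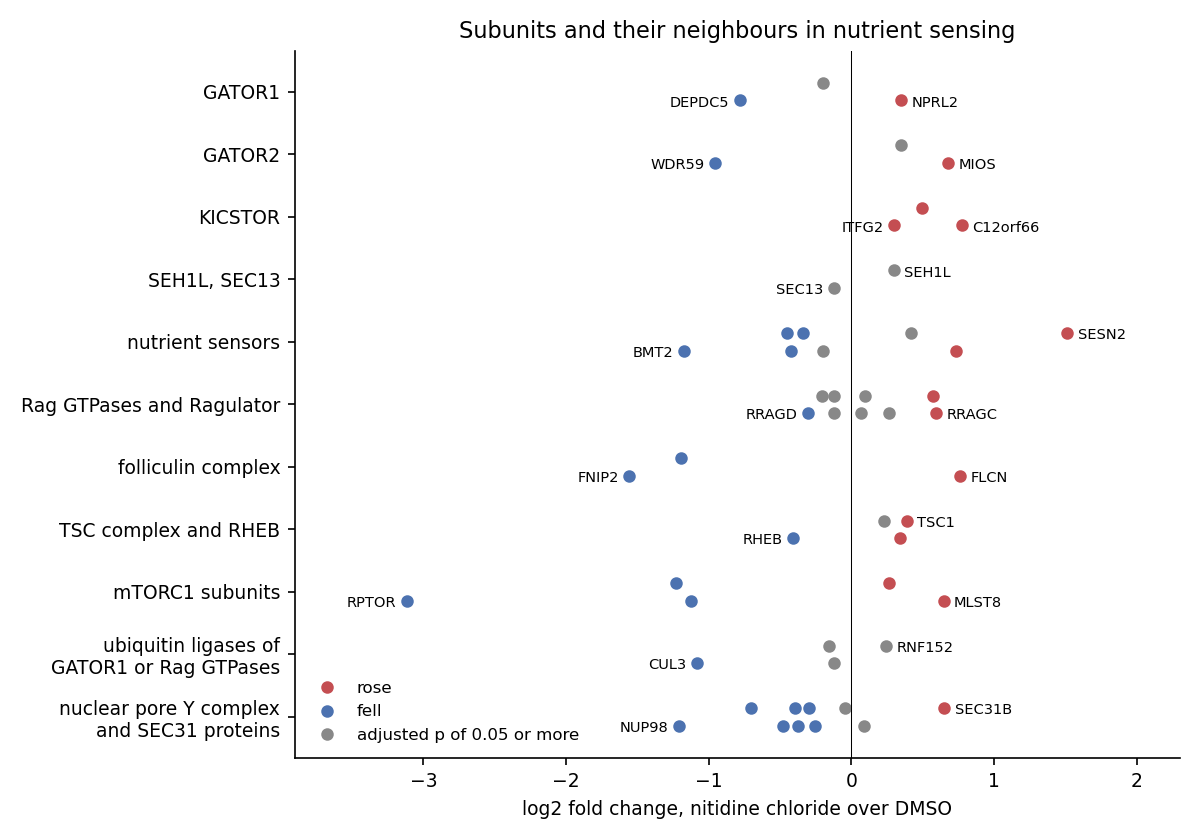
Log2 fold change of nitidine chloride over DMSO (x axis) of the genes of each list (rows), with a point per gene, red where it rose, blue where it fell and grey where it did not pass, and names at the ends of each row. The KICSTOR subunits KPTN, ITFG2 and C12orf66 all lie above 0, and RPTOR has the lowest value of the genes drawn.

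The genes whose centred log2 CPM over the 6 libraries was nearest to that of C12orf66, among 15953 genes, were EIF1AD, DNAJB2 and GAS2L1, at Euclidean distances of 0.07, 0.08 and 0.09. Their log2 fold changes were 0.77, 0.76 and 0.84, beside 0.77 for C12orf66. Nearest to WDR59 were GTF2E2, GMPS and IGFBP7 at distances of 0.08, 0.11 and 0.12, with log2 fold changes of -0.98, -0.96 and -0.999. All of these genes were picked by their values in the same 6 libraries, so fold changes like those of the subunits were fixed by the choice.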

How the data were processed

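The deposited table gave whole-number read counts per gene for 6 libraries, per the file headers and the values, and FPKM, per the file headers. The headers do not say how the FPKM were computed or from which counting. The submitters' processing notes list HISAT2 2.0.4 and StringTie 1.3.0 without their roles. Which counter, strand setting, build and annotation were used is not given in the sources used here. Positions in the table were those of GENCODE release 29 (GRCh38) for 8 of the 9 subunits, all but DEPDC5, and are printed as deposited. The FPKM length equalled the sum of all distinct exons, overlapping ones counted repeatedly, within 1% for 87.3% of 15814 tested genes and for 6 of the 9 subunits, not for DEPDC5, WDR24 and ITFG2.

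Of 50868 genes, the 15953 whose mean count was at least 10 were tested with edgeR 4.0.16 (R 4.3.3): TMM scaling, quasi-likelihood test of nitidine chloride against DMSO, no covariate, Benjamini-Hochberg adjustment over all tested genes, threshold 0.05. CPM are TMM-scaled except for cell type markers. The SE is the log2 fold change over the root of the F statistic. Subunit ratios came from the deposited FPKM, in which gene length cancels from a difference, with an exact permutation test. The edgeR fit, not the permutation test, was tried on simulated data. Far fewer genes changed there than were called here, and their changes had no tie to span, so that run does not cover this setting.

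The members and lists were chosen with earlier results of these data known. Genes named are the subunits, the genes of each list that passed with the highest fold changes (up to 2) and the lowest (up to 2), and the 3 nearest genes by centred log2 CPM to the subunits with the highest and the lowest fold change. CASTOR1, DEPTOR, RRAGB, KLHL22, TBC1D7, the LAMTOR genes and the genes that overlap a subunit were named outside that rule, after their values were seen. A gene that the rule names is not reported here. Alternatives were each library left out, a replicate block, no filter or a mean of at least 50 counts, DESeq2 1.42.0, library size alone, limma-voom (limma 3.58.1), a threshold of 0.01, edgeR's test against a change of 1.5-fold, and limma on log2(FPKM + 0.1) and log2(FPKM + 1), where fold changes of low genes are understated.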

Additional observations from a re-analysis of the deposited data

How the results depend on the processing

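No subunit and no ratio reversed its direction in any alternative run. The threshold of 0.01 and the test against a 1.5-fold change keep the main fold changes, so these alternatives could not reverse one. The number of genes changed was 8250, and 7057 to 7828 with a library left out. The test against a 1.5-fold change left 2833 genes changed and 1 subunit of 7, WDR59. With a library left out, 5 to 8 subunits passed and 3 to 6 rose. WDR59 passed in all 16 alternatives, and DEPDC5, MIOS, KPTN and C12orf66 in 15 of 16, all but the 1.5-fold test. ITFG2 lost its call in 10 of 16, NPRL2 in 5. WDR24 gained one in 5, SEH1L in 7 and NPRL3 in none. On log2(FPKM + 1), DEPDC5 was at -0.37 in place of -0.78. With the replicate block, 7555 genes and 5 subunits passed, NPRL2 (adjusted p 0.06) and ITFG2 (0.0574) not among them. For the ratios, the mean of the paired differences is the difference of the means, so pairing could not change a direction. The numbers share only a label: deviations of libraries with the same number correlated at -0.003, -0.065 and 0.04, and not every library correlated best with its own number. With library size alone, the median log2 fold change of all genes was 0.12 in place of 0.01, and 5140 genes were higher and 3730 lower, against 3936 and 4314. The precision is limited by the counts, 173 to 1471 per subunit and library, and by 3 libraries a group.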
